A study of Mus musculus with 6 samples.

Results

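The collagen chain genes of cultured mouse lymphatic endothelial cells (LEC) were compared between a metastatic tumour and normal skin. They were taken as every gene with a symbol of the form Col, number, a, number that had a probe set annotated to it alone, and 42 such genes were found among 18193 genes on the array, with 82 probe sets. Each gene was represented by its brightest probe set over the 6 arrays. By class, 11 of the 42 genes encode fibrillar chains, 6 basement membrane chains of type IV, 9 chains of fibril-associated collagens with interrupted helices (FACIT) and 16 other chains.

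Tumour LEC came from C57BL/6 mice that had been injected with T241/VEGF-C/GFP fibrosarcomas, a mouse fibrosarcoma line that carries the lymphatic growth factor VEGF-C and green fluorescent protein. The age and sex of these mice are not given in the sources used here. The normal group was dermal LEC of female C57BL/6 mice, aged 8 weeks and sampled at the tail. Both were cultured on gelatin in EGM-2, an endothelial growth medium, and purified by magnetic selection for LYVE-1, a hyaluronan receptor of lymphatic endothelium, although the label text for the tumour cells runs into that for skin. Tumours were digested with collagenase, elastase and hyaluronidase, and most fibrosarcoma cells were lifted off with EDTA. Skin was treated with dispase. The titles of the tumour arrays name tumour cells, and the source labels name tumour LEC. Each group had 3 arrays. Nothing in the labels says whether the 3 were separate cultures or animals, so each p-value reflects array-to-array spread that may be technical, and with 3 arrays a group every value is imprecise.

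Collagens are triple helices of 3 polypeptide chains in which every helix position close to the axis is a glycine, and different chains combine into different supramolecular forms. Fibrillar collagens make the banded fibrils of the interstitial matrix and are the main product of fibroblasts. Type IV collagen makes the sheet-like network of basement membranes, which endothelial cells lay down themselves, and the basement membrane of lymphatic capillaries is thin and discontinuous. FACIT chains decorate the surface of fibrils, type VI chains form beaded filaments near cells, and types XV and XVIII, the multiplexins, sit in basement membrane zones.

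In these cells most fibrillar chains and the type VI chains above background read lower in tumour LEC than in normal LEC, and the main type IV chains were slightly higher. Col1a2, which encodes the second chain of type I collagen, was the only collagen gene that passed the test over all genes, and it fell by 9.38 log2 units (SE 0.77, limma adjusted p = 0.0276). Genes of 12 further chains had 3 tumour arrays that all lay below the 3 normal arrays, among them Col3a1, Col6a1 and Col6a2, so that 13 of 26 collagen genes above background were lower in this sense, against 13.5% of all such genes. All 13 were highest on normal replicate 1, as were 14 of 15 fibroblast markers, whose part was not tested. Of all 11105 genes tested and above background, 2075 were highest on that array. Col4a1 and Col4a2, the chains of the common type IV trimer, had tumour arrays that all lay above the normal ones, by 0.39 and 0.57 log2 units. Col18a1 was bright on all 6 arrays and overlapped between the groups.

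The array does not read promoters, but the promoters of 4 of the chains that were low together in tumour LEC are shown for context. RefSeq promoter windows (build GRCm38.p6) were matched for 33 of the 42 genes, and the last 120 bases before the transcription start are printed 5′ to 3′ for 1 chain each of types I, III, V and VI. Both strands were searched for the letters CCAAT, known as the CAAT box and bound by the factor NF-Y. The search also covered TATAAA, the core promoter element bound by TBP. The letters GGGCGG, the GC box bound by Sp factors, were searched as well, and matches are in capitals. The windows are Col1a2 at chr6:4505498-4505617 on the plus strand, Col3a1 at chr1:45311418-45311537 on the plus strand, Col5a1 at chr2:27886305-27886424 on the plus strand and Col6a1 at chr10:76726045-76726164 on the minus strand.
Col1a2: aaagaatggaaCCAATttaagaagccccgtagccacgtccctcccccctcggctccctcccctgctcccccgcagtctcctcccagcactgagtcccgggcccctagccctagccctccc
Col3a1: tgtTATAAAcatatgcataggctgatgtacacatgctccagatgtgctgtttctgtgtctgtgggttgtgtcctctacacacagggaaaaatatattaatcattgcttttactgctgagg
Col5a1: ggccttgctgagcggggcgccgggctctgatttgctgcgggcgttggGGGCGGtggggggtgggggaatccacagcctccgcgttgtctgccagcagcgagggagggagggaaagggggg
Col6a1: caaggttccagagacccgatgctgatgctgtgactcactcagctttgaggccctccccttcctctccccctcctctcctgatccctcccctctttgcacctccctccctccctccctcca

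Col1a2 held its CCAAT box 109 bases before the start, Col3a1 held a TATAAA at 117 bases and Col5a1 a GC box at 73 bases, while the Col6a1 window held none of these letters. Over the 250 bases before the start, CCAAT was present in 13 of 36 collagen windows (36.1%) and in 33.8% of all 32851 windows in the table. GGGCGG was present in 21 of 36 (58.3%) against 32.7%, and TATAAA in 5 of 36 (13.9%) against 12.4%. These are letter matches and no measure of binding. Col4a1 and Col4a2 lie head to head, and their windows of 300 bases shared 78 bases. Col4a1 and Col4a2 also stood on the same side of 0 in the expression comparison, as did 2 other adjacent pairs above background, Col3a1 with Col5a2 and Col6a2 with Col6a1.

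Background was set on each array by 27 control probe sets for bacterial transcripts, all of them dim here, and a signal counted as above it when it exceeded the brightest of them, a limit of 3.40 to 3.71 log2 units. By this measure 26 of the 42 collagen genes were above background on at least 1 array, 21 on all 3 normal arrays and 13 on all 3 tumour arrays. The other 16 genes lay between 2.02 and 3.58 on all arrays, and their differences ran from -0.03 to 0.18, with 15 of the 16 positive. Background itself was higher in tumour replicate 3, whose control probe sets had a median of 2.77 against 2.56 to 2.61 on the other 5 arrays. Tumour replicates 1 and 2, at 2.59 and 2.61, also lay slightly above every normal array, at 2.56 each. The part of this offset in small positive differences of dim genes was not tested. The genes at background on all arrays were Col2a1, Col11a2 and Col24a1 of the fibrillar class, Col4a3, Col4a4 and Col4a6 of the basement membrane class, Col9a1, Col9a2, Col9a3 and Col19a1 of the FACIT class, and Col6a4, Col6a5, Col8a2, Col10a1, Col17a1 and Col25a1. Among them are the cartilage chains of types II, IX and X, for which the probe sets gave no readable signal in either group.

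A filter on dim probe sets, a mean above the 40th percentile (2.71), left 12954 genes to test and 32 collagen genes. The dimmest collagen gene kept was Col9a1 with a mean of 2.76, and the brightest left out was Col25a1 with 2.71. A gene high in only 1 group can pass this filter through that group, so the counts that follow describe the genes kept and are not support for a difference. With limma and Benjamini-Hochberg adjustment, 1 of the 32 was lower and 0 were higher at an adjusted p under 0.05, where 0.170% of all genes tested were lower and 0.0463% higher. Without adjustment, 12 of the 32 had a p under 0.05 and were lower, where 8.83% of all genes were, and 3 were higher, where 6.66% were. Of the 26 genes also above background, 13 had all tumour arrays below all normal arrays, against 13.5% of the 11105 such genes on the array, and 5 had all tumour arrays above, against 13.8%. Of these 5, Col4a1 and Col4a2 were above background on every array. Col14a1, Col26a1 and Col27a1 lay close to background, and the groups of Col26a1 were apart by 0.003 log2 units only. The median difference over the 32 was -0.44, against 0.03 over all genes tested.

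The normal arrays were not alike. Normal replicate 1 was the highest normal array for all 13 of the lower genes, by 0.78 to 3.96 log2 units over the mean of the other 2 normal arrays, with a median of 2.38. By definition, the highest array of these 13 was a normal one. Markers of fibroblasts other than collagens were also high on this array. Of 15 such genes above background 14 were highest on normal replicate 1, against 2075 of all 11105 genes tested and above background. The fibroblast markers had a median deviation from the gene means of 3.69 on that array. The same deviation was 0.78 and 1.02 on the other 2 normal arrays and ran from -1.96 to -1.12 over the tumour group. Their part in the collagen differences was not tested. Results are therefore also given without normal replicate 1, where 3 collagen genes were lower at an adjusted p under 0.05 (0.579% of all genes tested were), 10 were lower at an unadjusted p under 0.05 (6.22%) and 1 was higher (4.64%). The 13 lower genes all stayed lower without that array, by -8.51 to -0.48 with a median of -2.56, and all 13 differences were closer to 0 than with 6 arrays, where the median was -3.25. In cultured bulk samples fewer cells of a type and less RNA per cell cannot be told apart.

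**Figure D1:**
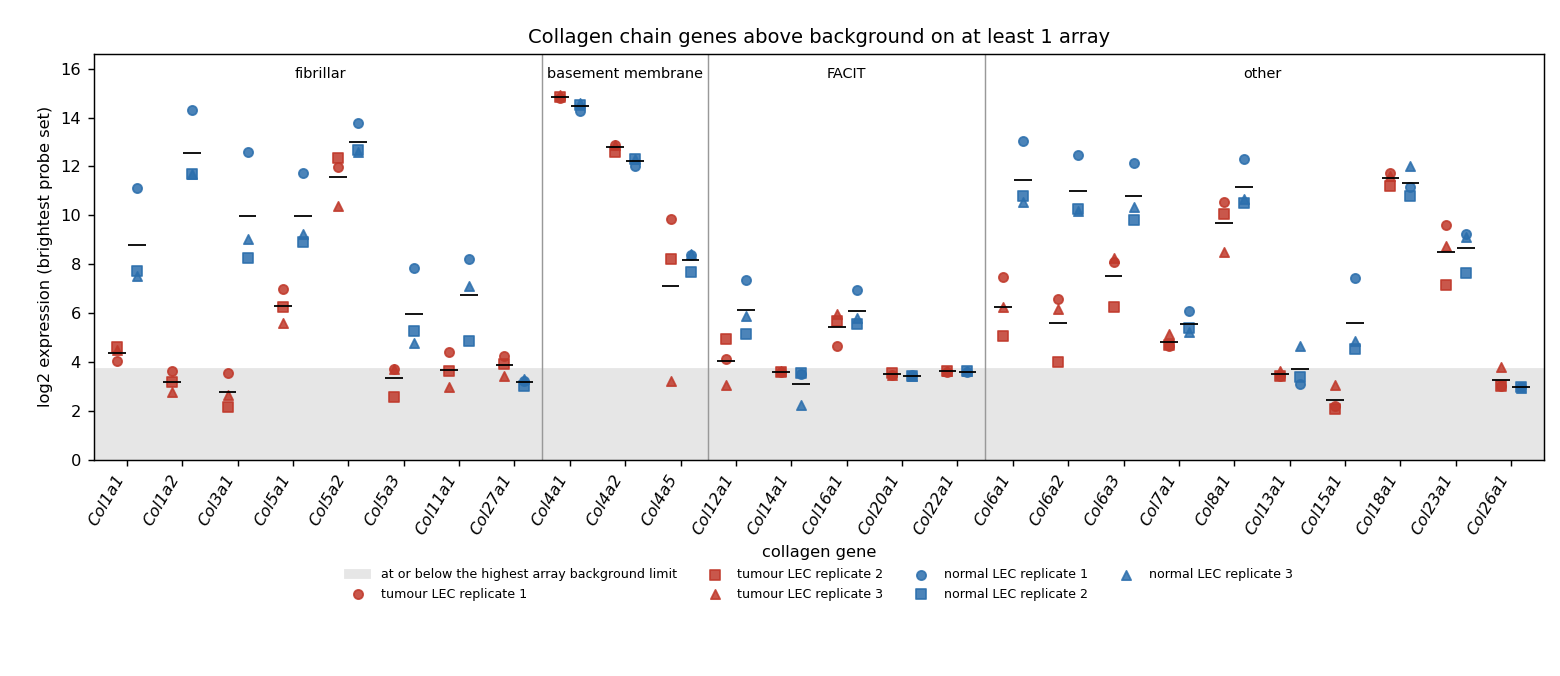
Log2 expression of the 26 collagen genes above background on at least 1 array, by class, with each array as a point (tumour LEC red, normal LEC blue, replicates by symbol) and group means as black bars. The red and blue points of Col1a2, Col3a1 and the type VI chains are far apart, with normal replicate 1 the highest, whereas those of Col4a1, Col4a2 and Col18a1 lie close together.

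Type I collagen, the chief fibril of skin, is built from 2 chains encoded by Col1a1 and 1 encoded by Col1a2. Col1a2 read 3.61, 3.16 and 2.76 in tumour replicates 1 to 3 and 14.29, 11.69 and 11.70 in normal replicates 1 to 3. Only the first of these tumour arrays was above its background limit, and the groups were separated by 8.07 log2 units. With the 2 tumour arrays at background raised to their limits, the deficit of Col1a2 was at least 492-fold with all normal arrays kept. Without normal replicate 1 the fitted deficit was 365-fold. It ranked 13 by p among the 12954 genes. The adjusted p was 0.00243 without normal replicate 1 (difference -8.51), but 0.0652 and 0.0935 without normal replicate 2 or 3, and 0.0774, 0.107 and 0.189 without tumour replicate 1, 2 or 3, so the call was lost when any of these 5 arrays was left out. It was also lost with no filter on dim probe sets (adjusted p = 0.0662).

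Col1a1 read 4.02, 4.61 and 4.49 on the tumour arrays and 11.12, 7.71 and 7.52 on the normal arrays. All tumour values were a little above background and below every normal value. The difference was -4.41 (SE 1.00), or 21.3-fold, with a limma adjusted p of 0.151 over 6 arrays. Without normal replicate 1 the difference was -3.24 (SE 0.23) and passed, with an adjusted p of 0.0172.

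Col3a1 encodes the only chain of type III collagen, which forms thin fibrils with type I in skin and vessel walls. It read 3.54, 2.18 and 2.65 on the tumour arrays and 12.61, 8.27 and 9.02 on the normal arrays. The groups were separated by 4.72 log2 units, and 2 of the 3 tumour arrays were at background. With these raised to their limits the gene was lower by at least 82.9-fold over the 6 arrays. The fitted fold without normal replicate 1 was smaller, at 57.9. The difference of -7.18 (SE 1.18) had a limma adjusted p of 0.0892, and without normal replicate 1 it was -5.85 (adjusted p = 0.0302). Among the 6 leave-out fits, Col1a1, Col1a2 and Col3a1 passed without normal replicate 1, and no collagen gene passed in the others. Of these chains, Col1a2 alone also passed with all 6 arrays.

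Type V collagen nucleates fibrils and controls their width, and it has 3 genes. Col5a1 read 6.97, 6.27 and 5.61 on the tumour arrays and 11.72, 8.90 and 9.24 on the normal arrays, a difference of -3.67 (SE 0.82, limma adjusted p = 0.148). Col5a2 stayed bright on every array, at 11.96, 12.36 and 10.40 in tumour LEC and 13.78, 12.67 and 12.61 in normal LEC. Its difference was -1.45 (SE 0.61, 95% confidence interval -2.96 to 0.06), and only 0.25 log2 units separated the groups. It was -0.86 without tumour replicate 3, the lowest array, and -0.77 with array weights. Col5a3, a minor chain, read 3.71, 2.56 and 3.73 against 7.84, 5.28 and 4.78, with 1 tumour array at background, and was at least 4.97-fold lower (difference -2.63, and -1.70 without normal replicate 1). The 3 type V chains were all lower by sign, and whether their differences were unequal was not tested.

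Of the other fibrillar chains, Col11a1, which joins type II in cartilage and type V elsewhere, read 4.40, 3.65 and 2.96 in tumour LEC and 8.22, 4.85 and 7.09 in normal LEC. It was at background on 1 tumour array and was at least 6.97-fold lower, with a limma adjusted p of 0.228. Col27a1, a short-helix chain, was the only fibrillar gene above background with the groups apart in the other direction: the tumour arrays read 4.26, 3.90 and 3.41 and the normal arrays 3.21, 3.01 and 3.29, all 3 of the latter and tumour replicate 3 at background. The difference of 0.69 (SE 0.24) is small and close to background. Over the 9 fibrillar genes tested the median difference was -3.05, with 7 negative, and without normal replicate 1 it was -2.30.

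**Figure D2:**
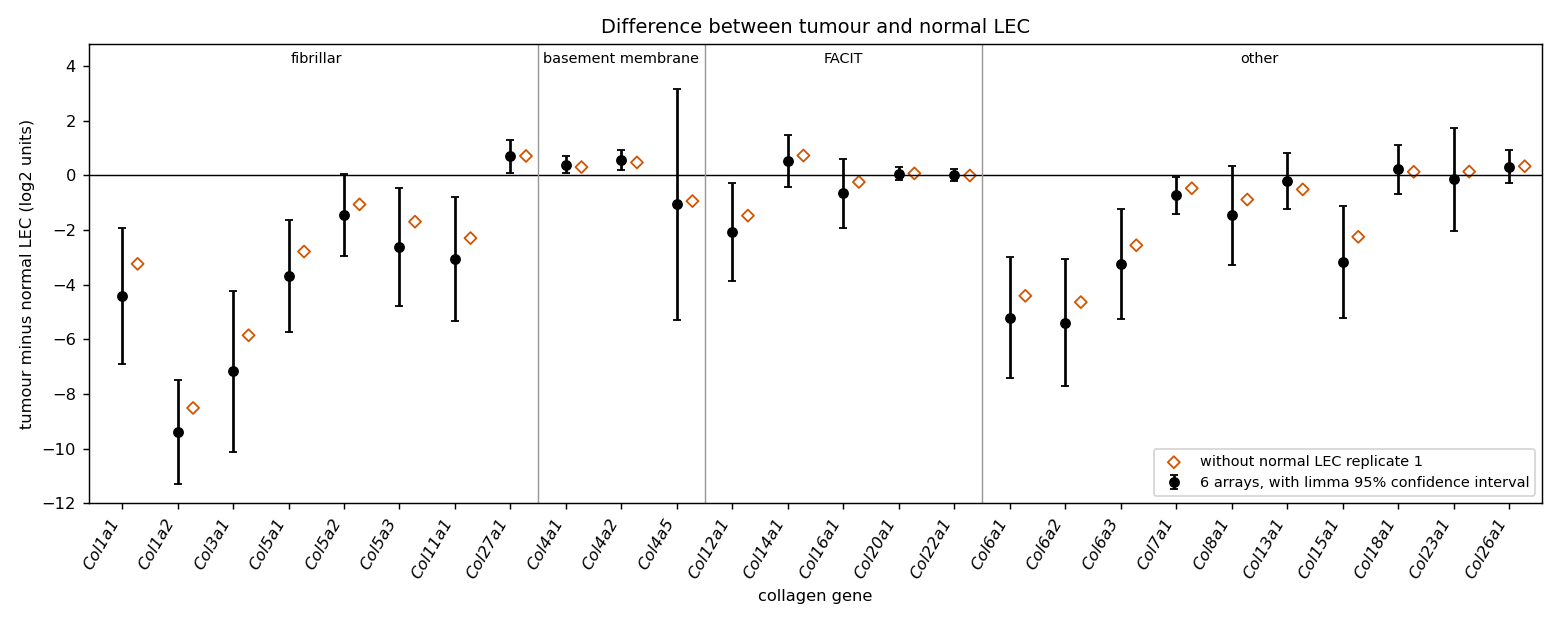
Tumour minus normal difference in log2 units for the same 26 genes, with limma 95% confidence intervals over 6 arrays (black) and the value without normal replicate 1 (open diamonds). The fibrillar and type VI chains lie below 0 with and without that array, apart from Col27a1, and the intervals of Col4a1 and Col4a2 lie just above 0.

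Type IV collagen of most basement membranes is made of 2 chains from Col4a1 and 1 from Col4a2. Col4a1 read 14.81, 14.85 and 14.92 on the tumour arrays and 14.29, 14.52 and 14.60 on the normal arrays. The tumour arrays were all higher, by 0.39 (SE 0.12), or 1.31-fold, and this did not pass (limma adjusted p = 0.243). Col4a2 read 12.88, 12.61 and 12.89 in tumour LEC and 12.03, 12.33 and 12.32 in normal LEC, higher by 0.57 (SE 0.15), or 1.48-fold (adjusted p = 0.188). Both differences stayed positive under all 16 alternatives run, at 0.30 to 0.49 for Col4a1 and 0.41 to 0.66 for Col4a2. For both genes normal replicate 1 was the lowest array, and without it the differences were 0.30 and 0.47. Over all 14 pan-endothelial markers the median difference was 0.96, with 12 positive and 0 past the adjusted threshold, and their part in the type IV values was not tested.

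Col4a5, a chain of the basement membranes of kidney, skin and smooth muscle, was set apart by a single array. Its brightest probe set read 9.84 and 8.21 in tumour replicates 1 and 2 but 3.23, at background, in tumour replicate 3. The normal arrays read 8.39, 7.67 and 8.41. The difference of -1.06 had an interval from -5.28 to 3.15, so that a change in either direction was not detectable here, and it was 0.87 without tumour replicate 3. The other Col4a5 probe set was above background on all 6 arrays, with a difference of -0.09. It read 6.23, 5.36 and 4.24 in tumour LEC and 5.43, 5.60 and 5.08 in normal LEC. Tumour replicate 3 was also the array with the highest background. Over the 5 type IV genes tested, which include 2 at background on all arrays, the median difference was 0.11.

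Type VI collagen forms beaded filaments that link cells to the surrounding fibrils, from chains encoded by Col6a1, Col6a2 and Col6a3. Col6a1 read 7.47, 5.07 and 6.24 in tumour LEC and 13.05, 10.81 and 10.54 in normal LEC, a difference of -5.21 (SE 0.90), or 36.9-fold. Col6a2 read 6.59, 4.01 and 6.17 against 12.48, 10.27 and 10.20, a difference of -5.39 (SE 0.93), or 42.0-fold. Col6a3 read 8.09, 6.24 and 8.23 against 12.15, 9.82 and 10.35, a difference of -3.25 (SE 0.81), or 9.53-fold. All 3 genes were above background on every array with groups that did not overlap, tumour replicate 2 was the lowest array for each, and none passed (limma adjusted p = 0.0950, 0.0950 and 0.178). Without normal replicate 1 the differences were -4.41, -4.64 and -2.56 (adjusted p = 0.145, 0.170 and 0.318). With array weights estimated from the spread of the values, Col6a1, Col6a2 and Col3a1 passed, with limma adjusted p of 0.0341, 0.0316 and 0.0373. These weights were 3.72 for tumour replicate 2 against 0.45 and 0.31 for tumour replicates 1 and 3. The weighted tumour values thus rest mostly on tumour replicate 2, the lowest array for all 3 of these genes.

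The 2 multiplexin genes overlapped or separated between the groups as follows. Col15a1 was at background on all 3 tumour arrays (2.19, 2.08 and 3.06) and read 7.45, 4.54 and 4.86 in normal LEC, so that it was lower by at least 4.12-fold. The fitted difference of -3.17 (SE 0.83) had a limma adjusted p of 0.194, and -2.25 (adjusted p = 0.133) without normal replicate 1. Col18a1, whose product releases the fragment endostatin, read 11.75, 11.18 and 11.63 in tumour LEC and 11.14, 10.78 and 12.01 in normal LEC. Its difference was 0.21 (SE 0.35), with an interval from -0.67 to 1.09 that allows either direction, and the sign turned without normal replicate 2 (-0.06) and with array weights (-0.13).

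Several chains outside the large families were also above background. Col8a1, a short-chain network collagen of vessel walls, read 10.57, 10.06 and 8.48 in tumour LEC and 12.32, 10.51 and 10.68 in normal LEC. The groups overlapped by a little, with a difference of -1.46 (SE 0.73), and 1 of its 2 other probe sets did separate them. Without normal replicate 1 the difference was -0.89, and without tumour replicate 3 it was -0.85. Col7a1, the anchoring fibril chain beneath epidermis, read 4.66, 4.70 and 5.14 against 6.09, 5.40 and 5.23, a difference of -0.74 (SE 0.27), with only 0.09 between the groups, and -0.48 without normal replicate 1. Col23a1, a transmembrane collagen, varied widely within each group, at 9.60, 7.15 and 8.74 in tumour LEC and 9.24, 7.62 and 9.11 in normal LEC. In both groups replicate 2 was the lowest array, and the difference of -0.16 had an interval from -2.03 to 1.72. Its sign turned without normal replicate 1 (0.13), normal replicate 3 (0.07) or tumour replicate 2 (0.52). Col13a1, another transmembrane chain, was above background on normal replicate 3 only (4.64), and Col26a1 on tumour replicate 3 only (3.81).

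FACIT genes were mostly dim. Col12a1, whose product binds the surface of type I fibrils, read 4.11, 4.94 and 3.06 in tumour LEC and 7.34, 5.13 and 5.89 in normal LEC, and with 1 tumour array at background was at least 3.66-fold lower. Its groups were apart by 0.20 log2 units only (difference -2.09, SE 0.72, limma adjusted p = 0.273). Col16a1 was readable on every array at 4.65, 5.66 and 5.97 against 6.94, 5.55 and 5.79, and the groups overlapped, with a difference of -0.67 that was -0.25 without normal replicate 1 and -0.28 without tumour replicate 1. Col14a1, Col20a1 and Col22a1 lay at the background limit, between 2.22 and 3.65 on all arrays, and the tumour arrays of Col14a1 were above the normal ones by 0.02. The median over the 7 FACIT genes tested was 0.06. These include Col9a1 and Col9a3 at background and Col14a1, Col20a1 and Col22a1 at its limit, so this median describes dim genes. The more readable chains, Col12a1 and Col16a1, were both lower by sign.

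**Figure D3:**
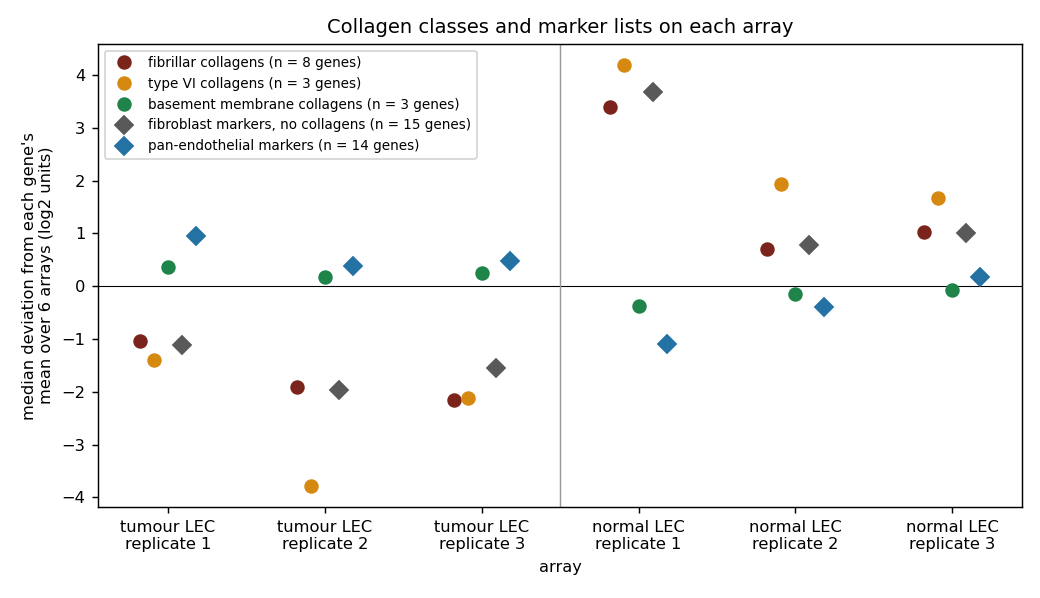
Median deviation from each gene's mean over the 6 arrays, in log2 units, for 3 collagen groups (circles) and 2 marker lists (diamonds), with the genes tested and above background. The medians of fibrillar chains, type VI chains and fibroblast markers are highest on normal replicate 1 (3.39, 4.19 and 3.69). That of type VI chains is lowest on tumour replicate 2 (-3.79), and that of the type IV chains stays between -0.38 and 0.37. Col4a5 itself varied far more than this type IV median.

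Marker lists place these values. Lyve1 read 14.11 to 14.91 in tumour LEC and 13.65 to 14.32 in normal LEC, and Cdh5, the endothelial junction cadherin, 11.52 to 11.65 and 9.62 to 11.37, so endothelial signal was present on every array. Pecam1, another pan-endothelial marker, read 8.86, 8.08 and 8.59 in tumour LEC and 5.59, 7.39 and 8.22 in normal LEC. The median deviation of the 14 pan-endothelial markers was lowest on normal replicate 1, at -1.10. It was -0.39 and 0.17 on the other normal arrays and 0.38 to 0.96 on the tumour arrays. The mean log2 level of 19 fibroblast markers without collagens was 4.14 to 4.74 on the tumour arrays and 6.41 to 8.36 on the normal arrays. Of the 19, 4 were at background on all arrays of both groups. Lum, Dpt, Fap and Mfap5 were at background on all 3 tumour arrays only. Among the normal arrays, Lum and Fap were above background on replicate 1 alone, Dpt on 2 arrays and Mfap5 on all 3. Pdgfra, a receptor of mesenchymal cells, read 5.74, 4.87 and 4.66 in tumour LEC and 11.75, 9.48 and 9.13 in normal LEC. Of the 15 fibroblast genes tested 14 were lower by sign, with a median of -3.35, and 0 passed the adjusted threshold. At an unadjusted p under 0.05, 11 were lower and 1 higher, where 8.83% and 6.66% of all genes tested were. The 1 higher was Thy1, at 0.67. Without normal replicate 1 the median was -2.66 and 13 were lower.

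Markers of other cell types are given as the mean log2 level of each list, which can be compared between arrays but not between lists. The mean level of 10 pericyte and smooth muscle markers was 4.98 to 5.57 in tumour LEC and 5.18 to 6.11 in normal LEC. For 11 keratinocyte markers it was 3.28 to 3.42 and 3.68 to 3.82, with 8 of the 11 at background on all arrays. Perp differed by -5.30 (limma adjusted p = 0.0415), and the lower mean of the list came mostly from this gene. Of the 7 keratinocyte markers tested, 2 were lower by sign, Perp and Krt10 (-0.24), and 5 were higher. Leukocyte markers ranged from 4.49 to 6.85 on the tumour arrays, with tumour replicate 1 the highest, and from 4.79 to 5.76 on the normal arrays. The 11 lymphatic endothelial markers had a median difference of 0.14. Markers of Schwann cells and melanocytes (3.23 to 3.24 and 3.21 to 3.44) and of cartilage without collagens (3.08 to 3.34 and 3.13 to 3.63) had low means, but Mitf (6.86 to 8.35 over the 6 arrays), Sox9 (5.21 to 6.77) and Matn3 (3.73 to 4.48) were above background on every array, and 5 of the 7 cartilage markers were above it on at least 1. The 5 adipocyte markers, of which Fabp4 and Lpl are also expressed by endothelium, read 6.67 to 8.02 and 7.49 to 7.54.

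The enzymes that make and cross-link collagen had members on each side of 0. Of 28 genes of this list on the array 25 were tested, 0 passed the adjusted threshold, and the median was -0.03. At an unadjusted p under 0.05, 8 were lower and 2 higher, where 8.83% and 6.66% of all genes tested were. The 8 lower genes were Pcolce2, Loxl1, Pcolce, Lox, P4ha3, P3h4, Crtap and Loxl3. Loxl1, a lysyl oxidase that cross-links fibres, was at background on the tumour arrays and at least 50.5-fold lower (limma adjusted p = 0.0577). Pcolce2 and Pcolce, enhancers of procollagen C-proteinase, differed by -5.69 (SE 0.65, adjusted p = 0.0577) and -4.73 (SE 0.74, adjusted p = 0.0853). Tll1, a procollagen proteinase, and P4ha1, a catalytic prolyl hydroxylase subunit, were the 2 higher genes, by 1.37 and 0.93.

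Collagen receptors were split. Of 8 receptor genes on the array 6 were tested, and 0 passed the adjusted threshold. At an unadjusted p under 0.05, 2 were lower and 2 higher, where 8.83% and 6.66% of all genes tested were. Ddr2, a kinase receptor for fibrillar collagen, read 4.87, 4.93 and 3.31 in tumour LEC and 10.52, 8.30 and 8.42 in normal LEC, and was at least 23.9-fold lower with 1 tumour array at background (limma adjusted p = 0.0863). Mrc2, which takes up collagen for degradation, was at background on all tumour arrays and at least 12.7-fold lower (adjusted p = 0.0863). Itga1, the integrin chain that binds type IV collagen, read 8.13, 6.54 and 7.44 against 5.84, 5.18 and 5.65, higher by 1.82 (SE 0.43, adjusted p = 0.164), and its partner Itgb1 was higher by 0.57. Among 9 collagen-degrading proteases, 7 were tested, with a median of -0.85 and 0 past the adjusted threshold. At an unadjusted p under 0.05, 2 were lower, where 8.83% of all genes tested were. These were Ctsk (at least 16.4-fold, 1 tumour array at background) and Mmp2 (-2.03, SE 0.63).

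Different probe sets of a gene mostly had the same sign. For 15 of the 26 genes 19 further probe sets were above background on some array, and 18 of the 19 had the sign of the brightest, the exception being Col22a1 near 0. The second probe set of Col1a2 differed by -8.26, that of Col6a2 by -5.41 against -5.39, that of Col5a1 by -3.61 against -3.67 and that of Col4a1 by 0.60 against 0.39. Sizes disagreed for the third probe set of Col1a2 (-0.59 against -9.38), the third of Col5a1 (-0.42 against -3.67), and further probe sets of Col3a1 (-2.21 against -7.18), Col12a1 (-0.51 against -2.09) and Col1a1 (-3.07 against -4.41). They also disagreed for Col4a5 (-0.09 against -1.06), Col11a1 (-1.95 against -3.05) and Col23a1 (-0.92 and -0.39 against -0.16). Of these, the ones of Col1a2, Col5a1 and Col12a1 were above background on 1 array only. The size of these folds therefore depends on the probe set chosen.

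**Figure D4:**
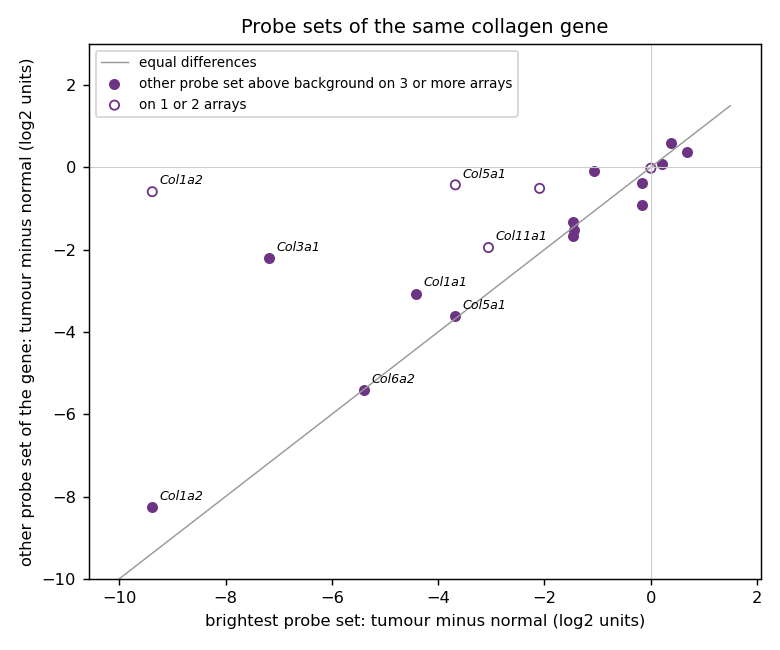
Tumour minus normal difference, in log2 units, of each further probe set above background against that of the brightest probe set of its gene, with the line of equal differences; filled points were above background on 3 or more arrays and open points on 1 or 2. Col6a2 and 1 probe set each of Col1a2 and Col5a1 lie near the line, while those of Col3a1 and Col1a1 lie above it, with differences closer to 0.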

How the data were processed

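RNA from 3 tumour and 3 normal LEC samples (50 ng total RNA, two-cycle biotin labelling) was hybridised to mouse Affymetrix arrays. The deposited values are on a log2 scale. RMA and GCRMA are named without versions in the submitters' processing notes, and the sources used here do not give which was used. They treat dim probes differently, so fold changes of genes near background depend on this. The annotation paired 34945 of 45101 probe sets with 1 gene and 932 with several. It listed no gene for 9160, and 64 were control probe sets.

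From these values the brightest probe set of each gene was tested with limma 3.58.1 (R 4.3.3), tumour minus normal, two-sided, without covariates, with Benjamini-Hochberg adjustment over 12954 genes at 0.05. "At least" folds raise dim values to each array's background limit. They keep normal replicate 1 and the brightest probe set, so they bound the effect of dim values only. Fitted folds without that array were smaller for Col1a2 (365), Col3a1 (57.9), Col5a3 (3.25), Col11a1 (4.93) and Col12a1 (2.79). That of Col15a1 (4.77) was not. On simulated data of 12954 genes for this comparison, 38%, 66%, 94% and 98% of changes of 1, 2, 4 and 8 log2 units were recovered, and 8 of 156 calls were false. The simulated noise was normal and independent between genes and arrays. It had no background floor and no array shifted for many genes together, so these rates need not hold for the collagen genes.

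The members, lists and tests were chosen with earlier results of these data known. The rule for per-array values took collagen genes past the test, the 16 with the smallest p among those above background, and 12 preset chains, which gave 17 genes, and for up to 3 genes with the smallest p per other list. Col4a5, Col8a1, Col16a1, Col23a1, genes named to spell out a small count, and single markers of other cell types were chosen after their values were seen. Col6a6 and Col28a1 were not analysed here. Alternatives were the dim-probe filter, normalization, variance model, array weights, probe set choice, background floor, replicate block and each array left out.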

Additional observations from a re-analysis of the deposited data

How the results depend on the processing

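The main count of 28 genes passing became 10 with no filter, 97 with a 60th percentile filter, 385 with array weights, 64 with values raised to the background limit, and 4 to 82 with 1 array left out. The collagen count of 1 became 0 with no filter, 4 with array weights and 0 to 3 with 1 array left out. The replicate block gave 46 genes and 2 collagen genes, Col1a2 and Col6a1 (adjusted p = 0.0355 and 0.0459). Same-numbered arrays correlated at 0.19, 0.33 and -0.004 in their deviations, and 2 of the 3 tumour arrays correlated best with their own number. The labels name no batch, and whether arrays of the same number share one was not tested. The median over collagen genes tested (-0.44) was 0.0441 with no filter, -2.36 with the 60th percentile filter, -1.18 with values raised to the limit (these 3 settings test 42, 20 and 26 of the genes), and -0.75 to -0.28 with 1 array left out. The basement membrane median (0.11) was 0.39 with the stricter filter and with raised values, 0.0459 with quantile normalization, 0.0472 with median centring, 0.49 with the mean of probe sets and 0.11 to 0.36 with 1 array left out. The FACIT median (0.06) was -1.38 with the stricter filter and -0.31 with the mean of probe sets. The median of other collagens (-0.74) was -0.0927, -2.32, -1.08 and -1.10 with no filter, the stricter filter, array weights and raised values. Among the 17 collagen genes that the naming rule took, Col18a1 alone changed sign (0.21), to -0.127 with array weights, and ran from -0.0579 (without normal replicate 2) to 0.560 with 1 array left out, and 257 of 271 comparisons kept their direction and side of the threshold. Of 4 further chains described, Col23a1 turned sign in 3 fits and Col4a5 in 1, each with an array left out, and Col8a1 and Col16a1 in none. Where no cause follows from the number of genes or arrays, the cause was not tested.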
